A study of Homo sapiens with 4 samples.

Results

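Integrins, cadherins and other adhesion receptors were followed in RNA recovered with an antibody against the splicing factor SF3B6. The set held every protein-coding gene of the deposited count table that was named as an integrin alpha or beta subunit or as a cadherin (CDH with a number), with KIRREL1, CD44, PTPRU, NECTIN2, L1CAM and ALCAM added by name. This gave 35 of 18276 listed genes: 12 integrin alpha genes, 7 integrin beta genes, 10 cadherins and the 6 added receptors. Of these, 18 had enough reads to be tested. The libraries were 2 immunoprecipitates (SF3B6 IP 1 and 2) and 2 libraries of input RNA, all from MDA-MB-231, a human triple-negative breast cancer line that grows as loosely attached, spindle-shaped cells. The labels give both kinds the same preparation, a single irradiation at 400 mJ/cm2 followed by lysis, DNase and digestion with micrococcal nuclease (MNase), and the IP used 5 ug of antibody. No allele or knockdown separated the groups, so the pull-down is the difference between them. A control IgG antibody is named in the protocol, but the reference analysed here was input, so RNA held unspecifically by beads or antibody was not told apart from RNA held by SF3B6. The series asks which transcripts SF3B6 contacts.

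Integrins are pairs of an alpha and a beta subunit that span the membrane and tie the matrix outside to actin inside. Cadherins join cells to each other through calcium-dependent contacts, with catenins at their cytoplasmic tails. SF3B6 belongs to the SF3b complex, with which the U2 snRNP recognises the branch point of introns, and most adhesion receptor genes have many introns. In breast cancer, loss of CDH1 (E-cadherin) and a high level of mesenchymal adhesion genes are known marks of lines such as this one.

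The libraries were shallow. Counts in genes came to 55492 and 30431 in SF3B6 IP 1 and 2, against 317190 and 519836 in input 1 and 2. The adhesion set held 311 and 203 IP counts, against 2994 and 5368 input counts. Counts were detected for 24 and 20 of the 35 genes in the IP libraries, against 28 and 30 in the inputs. A gene with 0 counts could still have had up to 3, which is 66.1 and 131 on the CPM scale (normalised read counts, scaled to a common library size with TMM) in the IP libraries and 10.6 and 6.12 in the inputs. These limits cover counting error only, and no molecular identifiers are named in the labels. The 2 libraries of a kind are called biological replicates in the series design.

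Most basal and mesenchymal markers of the line were present. All 10 such markers were listed, with a summed level of 4051 and 3878 CPM in IP, against 5175 and 5428 CPM in input. Most of the input sum came from AXL (mean 3099 CPM) and VIM (mean 1045 CPM). ANXA1, with 1 and 1 IP counts against 11 and 14 input counts, and SPARC, with 0 and 2 against 0 and 2, were hardly counted. Vimentin (VIM), the intermediate filament of mesenchymal cells, had 43 and 16 IP counts, against 286 and 532 input counts (log2 fold change -0.29, edgeR adjusted p = 0.563). AXL, a receptor kinase of mesenchymal breast lines, had 97 and 46 IP counts, against 871 and 1537 input counts (-0.57, 0.118), and MSN, the actin linker moesin, 13 and 8 against 72 and 129 (0.24, 0.817; by library totals -0.0014, by the FPKM totals -1.35). Of 10 luminal epithelial markers, 7 were listed, at 1123 and 1264 CPM in IP, against 1446 and 1476 CPM in input. Most of this came from the keratins KRT8 (-0.28, 0.678) and KRT18 (-0.17, 0.881), whereas CDH1 had 1 and 0 IP counts, against 1 and 3 input counts, and EPCAM 1 and 0 against 2 and 4. ERBB2, the HER2 receptor gene, stood at -0.97 (adjusted p = 0.223). Of 8 tested basal and 4 tested luminal markers 0 were called (edgeR; 1 of each lower at an unadjusted p under 0.05; DESeq2 called 0). Of 8 blood cell markers, 4 were listed, with 2 and 1 IP counts, against 0 and 3 input counts. Of 4 endothelial markers, 3 were listed, with 0 and 0 IP counts, against 3 and 3 input counts. Of 6 fibroblast markers, 5 were listed, at 264 and 218 CPM in IP against 155 and 157 CPM in input, and COL1A1, the collagen I chain and the single one tested, stood at 0.72 (adjusted p = 0.636; -0.88 with the FPKM totals). CD44, CDH1, ITGAM, ITGAX and ITGA2B belong both to these lists and to the adhesion set. The part of these markers in the results below was not tested.

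Adhesion receptor transcripts made up a smaller part of the IP libraries than of the inputs. Their summed share was 0.560% of gene counts in SF3B6 IP 1 (95% Wilson interval 0.502 to 0.626) and 0.667% in SF3B6 IP 2 (0.582 to 0.765). It was 0.944% in input 1 (0.911 to 0.978) and 1.03% in input 2 (1.01 to 1.06). Both IP shares lay below both input shares. As a share of protein-coding counts alone the difference was smaller, at 0.792% and 1.11% in IP against 1.21% and 1.25% in input, and the interval of SF3B6 IP 2 (0.971 to 1.28) then covered both input values. No test was made on these sums, since the genes were chosen with results known.

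Gene by gene, 3 of the 18 tested receptors were lower in the IP and 0 were higher (edgeR's quasi-likelihood test, Benjamini-Hochberg adjusted p under 0.05 over all tested genes). Among all 3668 tested genes, 1.36% were called lower and 2.7% higher. At an unadjusted p under 0.05, 8 receptors were lower and 0 higher, against 574 of all 3668 tested genes in either direction. DESeq2, a second count test, called 0 either way, with 5 lower and 0 higher at an unadjusted p under 0.05. The 3 lower genes were PTPRU, CDH11 and KIRREL1. PTPRU and KIRREL1 are among the 6 receptors added by name, of which 2 were lower. Of the tested genes taken by family name, 0 of 5 integrin alpha, 0 of 4 integrin beta and 1 of 3 cadherin genes were lower. The set was chosen with earlier results of these data known, so its counts cannot be read as a trait of these families. The expression filter treats input and IP libraries alike. PTPRU (0 and 3 IP counts) and CDH11 (3 and 1), like ITGA2 and ITGB2, passed it only through their input levels. How far this shaped the counts of lower receptors was not tested. The median log2 fold change of the 18 was -0.59, against -0.06 for all tested genes, and 17 of 18 were below 0, against 53.4% of all. Without the expression filter the median was -1.12 for the 35 receptors and -1.23 for all 18276 genes, so the receptors did not have the lower median there. That setting adds genes with hardly any reads, so it cannot show whether the difference holds for the tested receptors. Both IP libraries lay below both inputs in 10 of the 18, against 28.5% of all tested genes, and above both in 0, against 765 of 3668. The receptors were better counted than most genes, with a median of 214 counts over the 4 libraries against 94, and 8 of the 18 had fewer than 10 IP counts. Whether that played a part was not tested.

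**Figure D1:**
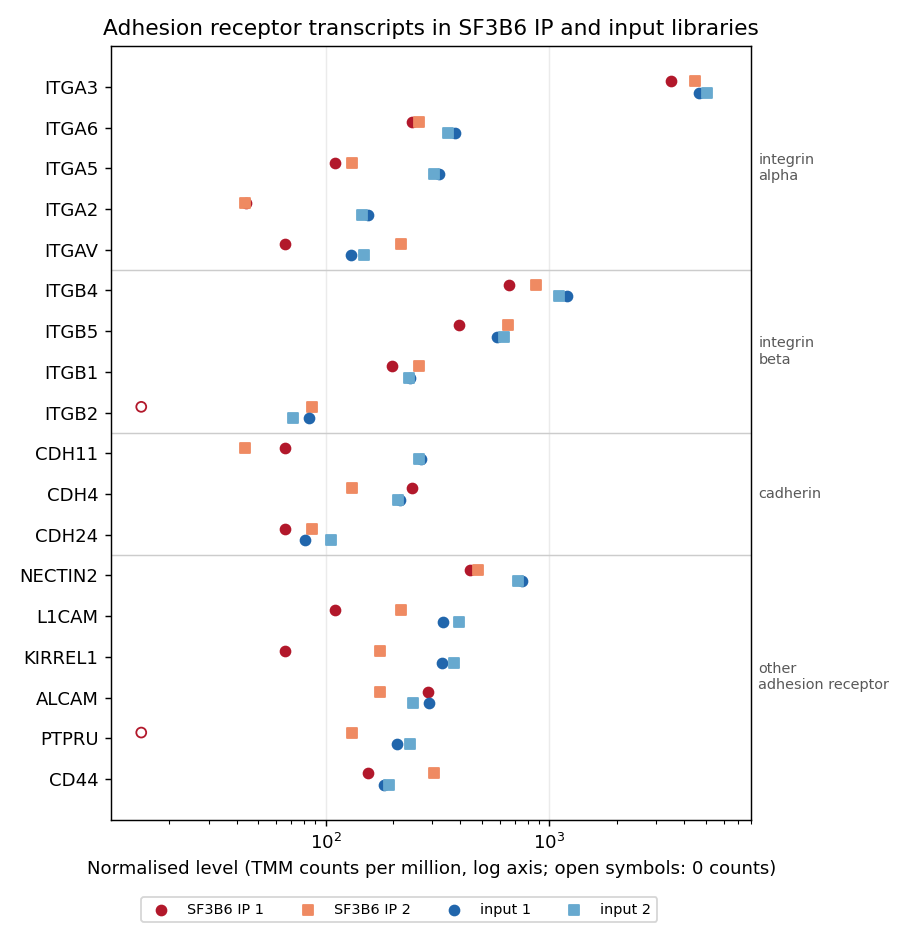
Normalised level of the 18 tested adhesion receptor genes in each library, in CPM after TMM scaling on a log axis. Red and orange symbols are the IP libraries and blue symbols the inputs, and open symbols at the left edge stand for 0 counts. CDH11, KIRREL1, ITGA5, ITGA2 and L1CAM show both IP values left of both input values, while ALCAM, CDH4, CD44, ITGB1 and ITGAV overlap.

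Among integrin alpha subunits, ITGA3 stood far above the others in every library. Its product pairs with integrin beta 1 to form a laminin receptor. ITGA3 (ENSG00000005884.18) lies on chromosome 17, 50056110 to 50090481 (GRCh38). It had 159 and 103 IP counts, against 1324 and 2485 input counts. It held 51.1% and 50.7% of the set's counts in IP, against 44.2% and 46.3% in input. By counts it ranked 8 and 5 among protein-coding genes in the IP libraries, and 6 and 5 in the inputs. Its normalised level was 3995 ± 698 CPM in IP against 4862 ± 288 CPM in the inputs (mean and SD of 2 libraries each). The log2 fold change of -0.30 ± 0.21 (SE) did not pass (edgeR adjusted p = 0.508), although both IP values, 3501 and 4488 CPM, were below both input values, 4658 and 5065 CPM. ITGA3 thus supplied about as many reads as all other members together without being one of the called genes. Without ITGA3 the set's share of all gene counts was 0.274% and 0.329% in IP, against 0.526% and 0.555% in input.

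The other alpha subunits had far fewer reads. ITGA5, the fibronectin receptor subunit (chromosome 12, 54395261 to 54419266), gave 5 and 3 IP counts, against 91 and 150 input counts. Its levels of 110 and 131 CPM in IP lay below those of 320 and 306 CPM in input, and the 2 libraries of each kind were close to each other. The log2 fold change was -1.41 ± 0.43, just outside the threshold (edgeR adjusted p = 0.0577). It was inside with upper quartile scaling (-1.54, adjusted p = 0.0390) and with library totals (-1.65, 0.0269), and further outside with DESeq2 (0.360) and without SF3B6 IP 1, SF3B6 IP 2, input 1 or input 2 (0.518, 0.0827, 0.364 and 0.356). ITGA2, a collagen receptor subunit, had 2 and 1 IP counts, against 44 and 71 input counts. With 3 IP counts its ratio of pooled counts was 0.296 (exact 95% interval 0.0601 to 0.886), and the test did not pass (adjusted p = 0.182). This and the other intervals of pooled ratios cover counting error only and leave out the spread between libraries, which was larger (chi-square per degree of freedom 4.33 between the IP libraries). ITGA6, a laminin receptor subunit that pairs with beta 1 or beta 4, had 11 and 6 IP counts, against 108 and 173 input counts, a log2 fold change of -0.55 ± 0.33 (adjusted p = 0.436). ITGAV, the alpha subunit of the vitronectin receptors, had 3 and 5 IP counts, against 37 and 73 input counts. Its IP libraries fell on both sides of the inputs, at 66.1 and 218 CPM against 130 and 149 CPM, and its log2 fold change of -0.27 turned to 0.40 without SF3B6 IP 1. In ITGA5, ITGA2 and ITGA6 both IP libraries were below both inputs, and in ITGAV the groups overlapped.

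Of the 7 beta subunits 4 were tested and 0 were called (edgeR; 1 at an unadjusted p under 0.05, ITGB4; DESeq2 called 0). ITGB4, the laminin receptor subunit of hemidesmosomes (chromosome 17, 75721459 to 75757818), gave 30 and 20 IP counts, against 341 and 539 input counts. Its level was 766 ± 149 CPM in IP against 1149 ± 71.5 CPM in input, without overlap. The log2 fold change was -0.64 ± 0.23 (adjusted p = 0.127), and it passed with library totals (-0.88, 0.0361) and without SF3B6 IP 2 (-0.89, 0.0248), but not with DESeq2 (0.572) or without SF3B6 IP 1 (0.557), input 1 (0.546) or input 2 (0.388). ITGB5, which joins alpha V in a vitronectin receptor, had 18 and 15 IP counts, against 166 and 308 input counts, and overlapped at 396 and 654 CPM against 584 and 628 CPM. ITGB1, the partner of most alpha subunits, had 9 and 6 IP counts, against 68 and 116 input counts. It stood at 230 ± 44.7 CPM in IP and 238 ± 1.98 CPM in input. Its ratio of pooled counts was 0.924 with an interval of 0.507 to 1.56. ITGB2, the beta subunit of leukocyte integrins, had 0 and 2 IP counts, against 24 and 35 input counts, and its pooled ratio of 0.384 had an interval from 0.0455 to 1.45. The lncRNA ITGB2-AS1, which overlaps it, had 3 and 0 IP counts, against 5 and 5 input counts. No source used here gives the strand setting of the counting, so reads of such overlapping partners cannot be told apart.

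Per length, partner subunits were unequal. FPKM values, which scale counts by gene length and library total, allow such a comparison within a library. ITGA3 had 21.41 and 20.97 FPKM in IP and 63.68 and 99.55 FPKM in input. ITGB1 had 0.82 and 0.82 FPKM in IP and 2.20 and 3.13 FPKM in input. The FPKM of ITGA3 was thus 26.1 and 25.6 times that of its partner in IP, against 28.9 and 31.8 times in input. ITGA6 stood at 0.370 and 0.303 of ITGB4 in IP, against 0.320 and 0.325 in input. For both pairs the IP and input ratios were close. Over its other partner, ITGB1, the FPKM ratio of ITGA6 was 2.65 and 2.18 in IP, against 3.46 and 3.25 in input, and ITGAV over ITGB5 was 0.132 and 0.264 in IP, against 0.177 and 0.188 in input. For ITGA5 over ITGB1 they were apart, at 1.09 and 0.988 in IP against 2.64 and 2.55 in input, and likewise for ITGA2 over ITGB1, at 0.402 and 0.305 against 1.2 and 1.13. These ratios have no test. The IP values of ITGA2 rest on 3 counts, those of ITGA5 on 5 and 3, and those of ITGB1 on 9 and 6. How reads of near-identical gene copies were counted is not known, which could touch single subunits.

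The order of levels per length in input began with ITGA3. NECTIN2 (26.96 and 37.46 FPKM in input 1 and 2), ITGB4 (23.78 and 31.30), ITGB5 (12.01 and 18.56), ITGA6 (7.62 and 10.17) and L1CAM (6.16 and 10.43) came next. ITGA3 lay above every other member in both libraries. NECTIN2 was above ITGB4 in both inputs, whereas ITGA6 and L1CAM changed places between the inputs and have no settled order. At the low end were ITGAV (2.12 and 3.49), ITGB1 (2.20 and 3.13) and ITGB2 (1.65 and 2.00), of which ITGAV and ITGB1 also changed places. Across the 18 genes the mean FPKM in IP followed that in input with a Spearman correlation of 0.76, while the 2 inputs followed each other at 0.99 and the 2 IP libraries at 0.80. These points share their libraries and gene lengths, and the values describe the set.

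Of the 3 tested cadherins 1 was lower in IP, against 1.36% of all tested genes. CDH11, a mesenchymal cadherin also called OB-cadherin (ENSG00000140937.14, chromosome 16, 64943753 to 65123744), gave 3 and 1 IP counts, against 76 and 128 input counts. At the input level about 18 IP counts would have been found, and there were 4. The level was 54.8 ± 15.9 CPM in IP against 264 ± 4.58 CPM in input, both IP libraries far below both inputs. This was 4.47-fold lower in IP (log2 fold change -2.16 ± 0.55 SE, edgeR adjusted p = 0.0175). The interval of the pooled ratio, for counting error only, ran from 0.0600 to 0.578. CDH4 (R-cadherin, chromosome 20, 61252261 to 61940617) gave a similar number of input counts, 61 and 103, but 11 and 3 in IP. Its IP levels of 242 and 131 CPM lay on both sides of 215 and 210 CPM in input, with a log2 fold change of -0.05 ± 0.40 (adjusted p = 0.977) that turned to 0.10 without SF3B6 IP 2. CDH24 had 3 and 2 IP counts, against 23 and 52 input counts, and overlapped as well (-0.40 ± 0.67, adjusted p = 0.861). The difference between CDH11 and CDH4 was not itself tested. Both are long genes, with spans of 180 and 688 kb.

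The immunoglobulin-type receptors and their companions held the other called genes. KIRREL1, a relative of nephrin that sits in cell junctions (ENSG00000183853.18, chromosome 1, 157993645 to 158100262), gave 3 and 4 IP counts, against 94 and 184 input counts. Its level was 66.1 and 174 CPM in IP against 331 and 375 CPM in input, so that the IP libraries lay below the inputs but differed more from each other. It was 3.48-fold lower in IP (-1.80 ± 0.45 SE, adjusted p = 0.0159); at the input level 24.5 IP counts would have been found, and there were 7. PTPRU, a receptor-type tyrosine phosphatase with adhesive outer domains (ENSG00000060656.20, chromosome 1, 29236522 to 29326800), gave 0 and 3 IP counts, against 59 and 117 input counts. Its pooled ratio was 0.193 with an interval, for counting error only, of 0.0395 to 0.574 (log2 fold change -2.35 ± 0.68, adjusted p = 0.0408). L1CAM, a neural adhesion molecule found in many tumours, had 5 and 5 IP counts, against 95 and 193 input counts, and lay just outside the threshold (-1.34 ± 0.40, adjusted p = 0.0532). L1CAM was inside with RLE scaling (adjusted p = 0.0408), upper quartile scaling (0.0382), library totals (0.0282) and without SF3B6 IP 2 (-1.84, 0.0195). It was further outside with DESeq2 (0.428), when SF3B6 IP 1 (-0.98, 0.609), input 1 (0.214) or input 2 (0.486) was left out. NECTIN2, which binds nectins on neighbouring cells, had 20 and 11 IP counts, against 214 and 357 input counts. Its levels of 440 and 479 CPM in IP lay below 753 and 728 CPM in input, with little spread in either group, and its log2 fold change was -0.70 ± 0.26 (adjusted p = 0.129; with library totals -0.95, 0.0450; with DESeq2 -0.68, 0.569).

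ALCAM and CD44 were not called, and their groups overlapped. ALCAM, an adhesion molecule of leukocytes and epithelia, had 13 and 4 IP counts, against 82 and 121 input counts (286 and 174 CPM against 288 and 247 CPM). Its ratio of pooled counts, 0.949, had an interval from 0.542 to 1.56. CD44, the hyaluronan receptor that marks mesenchymal breast cancer cells, had 7 and 7 IP counts, against 52 and 94 input counts. It was the single tested receptor with a log2 fold change above 0, 0.12 ± 0.42 (adjusted p = 0.944), and this turned to -0.01 (upper quartile scaling), -0.12 (library totals) and -1.44 (FPKM totals). Its IP values, 154 and 305 CPM, enclosed the input values of 183 and 192 CPM. A p that misses the threshold does not show that these genes were unaffected, as their intervals show.

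**Figure D2:**
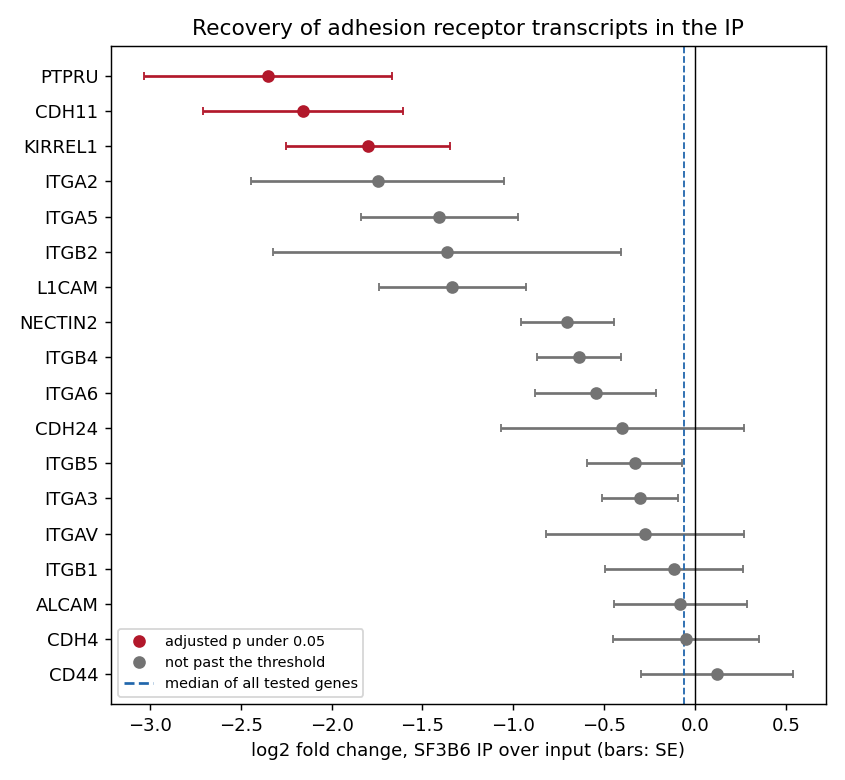
Log2 fold change of each tested adhesion receptor gene, SF3B6 IP over input, with its SE from the edgeR fit. Red marks PTPRU, CDH11 and KIRREL1, which passed the threshold, and the dashed line is the median of all tested genes at -0.06. CD44 alone lies right of 0, and turned to -0.01 with upper quartile scaling and -0.12 with library totals.

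The calls rested on few IP reads. Leaving out SF3B6 IP 1 ended all 3 (edgeR adjusted p = 0.640 for PTPRU, 0.230 for CDH11 and 0.547 for KIRREL1), as did leaving out input 1 (0.298, 0.218 and 0.111) or input 2 (0.679, 0.294 and 0.248), where fewer genes could be tested. Without SF3B6 IP 2, 5 receptors passed, and CDH11 (adjusted p = 0.0484) and KIRREL1 (0.00229) were among them. PTPRU then had 0 IP counts, and no fold is given; it moved most of the 3, to -1.01 without SF3B6 IP 1, and stood at -2.30 without input 1 and -2.05 without input 2. The log2 fold change of CDH11 stayed between -2.80 and -2.08 without each library in turn, and that of KIRREL1 between -2.52 and -1.25. Without either IP library the value of KIRREL1 moved by more than its SE.

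**Figure D3:**
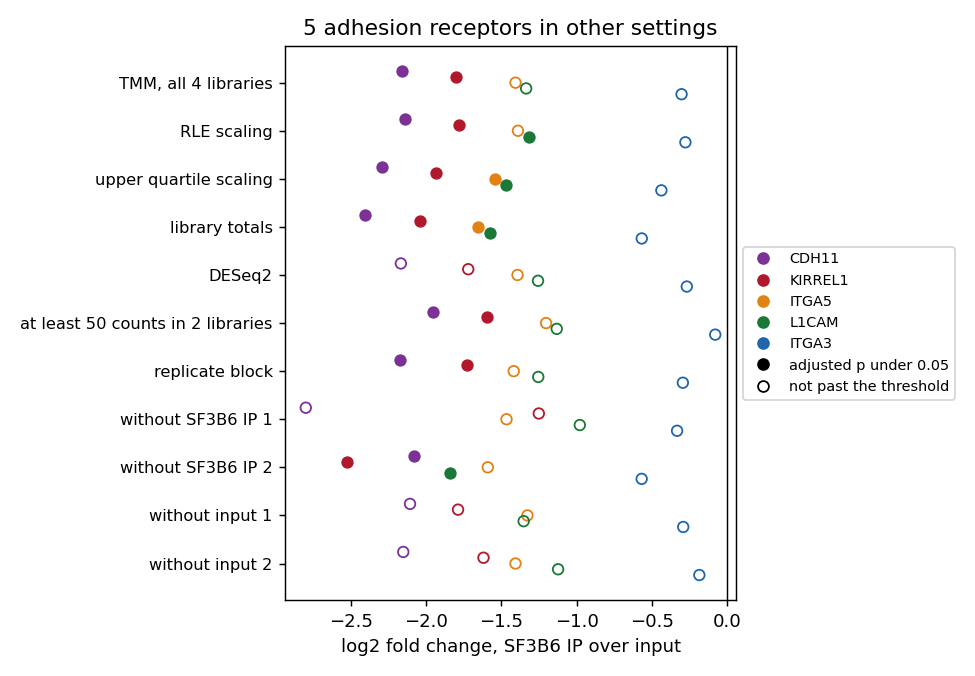
Log2 fold change, SF3B6 IP over input, of CDH11, KIRREL1, ITGA5, L1CAM and ITGA3 under TMM scaling with all 4 libraries and under 10 other settings. Filled symbols passed the threshold. CDH11 and KIRREL1 stay left of -1 in every setting shown and lose the call in DESeq2 and without SF3B6 IP 1, input 1 or input 2.

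The 17 untested genes were hardly counted. ITGA10 had 1 and 1 IP counts, against 7 and 27 input counts, ITGB3 1 and 0 against 11 and 10, and ITGAE 0 and 0 against 6 and 6. Each of the other 14 had fewer than 10 counts over the 4 libraries. The leukocyte integrin genes ITGAM and ITGAX had 1 IP count each and 0 in input. CDH6, CDH15 and CDH18 likewise had 1 count each, in SF3B6 IP 1 alone, which at this depth carries no direction. CDH3 (P-cadherin) had 2 and 0 IP counts, against 1 and 2 input counts. ITGAE and ITGA1, with 0 IP counts, had so few input counts that no fold could be given.

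Correlations of the fold changes with gene length and level were weak. Across the 18 receptors the log2 fold change had a Spearman correlation of 0.17 with gene span, 0.17 with the relative exonic length implied by counts and FPKM, and -0.05 with mean input level. Across tested protein-coding genes the same values were -0.19 (3408 genes), -0.13 (3483 genes) and -0.25. The points share the same 4 libraries, and these correlations are descriptions without a test. The ratio of SF3B6 IP 1 to input followed that of SF3B6 IP 2 with a correlation of 0.42 over the 18 receptors and 0.23 over the protein-coding genes, and both ratios share the inputs.

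Further adhesion receptors were looked up in a list drawn up with results of these data known, so its counts are a description only. From this list of 64 other receptors, tetraspanins and syndecans, 55 were listed and 32 tested. The tested ones had a median of 209 counts over the 4 libraries, against 94 for all tested genes. Whether that played a part was not tested. Of these, 5 were lower in IP and 0 higher, against 1.36% and 2.7% of all tested genes. At an unadjusted p under 0.05, 12 were lower and 0 higher, against 574 of all 3668 tested genes in either direction. Their median log2 fold change was -0.61, and both IP libraries lay below both inputs in 22 of 32, against 28.5% of all tested genes. PTPRS and PTPRF, receptor phosphatases related to PTPRU in having adhesive outer domains, were among them. PTPRS had 11 and 7 IP counts, against 186 and 344 input counts (log2 fold change -1.37 ± 0.30, edgeR adjusted p = 0.00394). PTPRF had 40 and 20 IP counts, against 434 and 822 input counts (-0.87 ± 0.22, 0.0175). FAT1, a giant atypical cadherin, had 12 and 6 IP counts, against 171 and 291 input counts (-1.18 ± 0.30, 0.0175). NRP1, a co-receptor for semaphorins and growth factors, had 4 and 6 IP counts, against 111 and 180 input counts (-1.36 ± 0.41, 0.0494), and stood at -0.74 without SF3B6 IP 1 (0.640) and -2.18 without SF3B6 IP 2 (0.00513). BSG, the membrane glycoprotein basigin, had 42 and 23 IP counts, against 466 and 793 input counts (-0.77 ± 0.22, 0.0334). In all 5 genes both IP libraries were below both inputs, which adds nothing to calls made on the same values. DESeq2 called 0 of the 5, and without SF3B6 IP 1, SF3B6 IP 2, input 1 and input 2 in turn 1, 6, 1 and 0 genes of the list were called.

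Of 35 adaptors and actin linkers of integrins, 23 were tested, with a median log2 fold change of -0.38. In IP 1 was lower and 0 higher, against 1.36% and 2.7% of all tested genes. At an unadjusted p under 0.05, 6 were lower and 0 higher, against 574 of all 3668 tested genes in either direction. Without SF3B6 IP 1, SF3B6 IP 2, input 1 and input 2 in turn 2, 2, 0 and 0 genes of the list were lower. DOCK1, a guanine exchange factor downstream of integrins, had 0 IP counts against 51 in input (21 and 30) and was not called (edgeR adjusted p = 0.12). Taking 3 IP counts as its limit, its pooled ratio would be at least 1.5-fold lower, a bound for counting error only. DOCK1 passed the expression filter only through its input counts, and the IP libraries differed by more than counting error. No decrease can be read from it. Of 17 catenins and cadherin partners 7 were tested and 0 were called either way (edgeR; 1 lower and 0 higher at an unadjusted p under 0.05; DESeq2 called 0). Their median log2 fold change was 0.51, with both IP libraries below both inputs in 3 and above both in 4 of the 7, against 28.5% below and 765 of 3668 above among all tested genes. Fewer than 10 IP counts were found in 5 of the 7. The summed level of the 13 listed partners was 1145 and 1002 CPM in IP, against 1133 and 1074 CPM in input. CTNNB1, beta-catenin, had 4 and 1 IP counts, against 53 and 87 input counts (-1.30 ± 0.57, adjusted p = 0.242). CTNNA1, alpha-catenin, had 7 and 1 IP counts, against 51 and 87 input counts (-0.61 ± 0.51, 0.611). AFDN, which links nectins to actin, had 11 and 9 IP counts, against 56 and 103 input counts (0.51 ± 0.36, 0.521; -1.06 with the FPKM totals). Whether catenins and receptors differed was not tested.

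Of 33 matrix ligands of integrins, 23 were tested, with a median log2 fold change of -0.28. They had a median of 366 counts over the 4 libraries, against 94 for all tested genes. Whether that played a part was not tested. In IP 3 were lower and 0 higher, against 1.36% and 2.7% of all tested genes. At an unadjusted p under 0.05, 4 were lower and 0 higher, against 574 of all 3668 tested genes in either direction. FN1, the fibronectin bound by integrin alpha 5, had 7 and 7 IP counts, against 155 and 343 input counts. THBS1, thrombospondin, had 43 and 29 IP counts, against 614 and 1072 input counts. MFGE8, a ligand of alpha V integrins, had 0 and 3 IP counts, against 55 and 132 input counts. Their log2 fold changes were -1.63, -1.03 and -2.44 (edgeR adjusted p = 0.00305, 0.00319 and 0.0386). MFGE8, like PTPRU, passed the expression filter only through its input levels, and how far this shaped its call was not tested. MFGE8 stood at -1.09 without SF3B6 IP 1 (adjusted p = 0.631) and had 0 IP counts without SF3B6 IP 2. LAMA5, a laminin chain, had 313 and 110 IP counts, against 1745 and 3130 input counts, and was not called (-0.08 ± 0.22, adjusted p = 0.927). DESeq2 called 0 of the list. The count of 3 became 1, 3, 1 and 0 without SF3B6 IP 1, SF3B6 IP 2, input 1 and input 2. The lists in these paragraphs were drawn up with results of these data known.

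**Figure D4:**
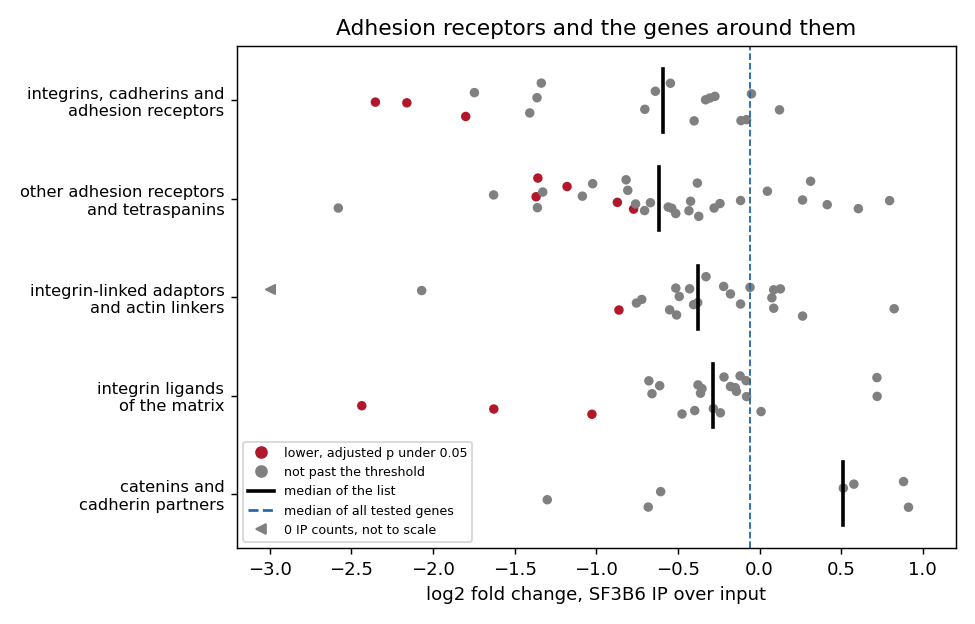
Log2 fold change, SF3B6 IP over input, of each tested gene in 5 gene lists, with the median of each list as a black bar and the median of all tested genes (-0.06) as a dashed line. Red points are genes called lower, and the triangle is DOCK1, which had 0 IP counts and is not drawn to scale. The medians are -0.59 for the integrins, cadherins and adhesion receptors, -0.61 for further receptors, -0.38 for adaptors, -0.28 for ligands and 0.51 for catenins. The catenin list has 7 tested genes, 5 of them with fewer than 10 IP counts.

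IP and input share no absolute scale, so a fold change says how a gene stood among the other genes. TMM scaling put the median of all tested genes at -0.06 and that of the receptors at -0.59. Upper quartile scaling put them at -0.19 and -0.73, and library totals at -0.31 and -0.84. With the library totals behind the FPKM values the medians were -1.65 and -2.18. A change of scaling moves all genes alike, so the gap between the medians carries no further information. The number of receptors called lower was 3 under TMM, 5 for upper quartiles, 7 for library totals and 18 for FPKM totals.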

How the data were processed

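RNA of 2 SF3B6 IP and 2 input libraries of MDA-MB-231 cells was measured. Raw read counts per gene were deposited by the authors, with FPKM values beside them. HISAT2, HOMER and hg38 are named in the submitters' processing notes, without versions or roles, and no source used here gives the counter, the strand setting or the FPKM total. Cell line entries of the labels differ in their last digit, and the titles' MDA-MB-231 was used.

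Groups were compared with edgeR 4.0.16 in R 4.3.3: default expression filter (3668 genes kept), TMM (factors 0.968, 0.860, 1.06 and 1.13 for SF3B6 IP 1 and 2 and input 1 and 2), quasi-likelihood test, group as the one term, Benjamini-Hochberg at 0.05. The SE is the fold change over the root of F, and spread is shared across genes. Ratios of pooled counts use exact 95% intervals and TMM-scaled library sizes. The SF3B6 IP libraries differed by more than counting noise (chi-square per degree of freedom 4.33), as did the inputs (1.72), so each is 1 replicate; p-values measure the spread between these libraries. Alternatives were DESeq2 1.42.0, limma 3.58.1 on log2(FPKM + 1), other scalings (RLE, upper quartile, library totals, totals recovered from counts over FPKM in genes with at least 20 counts), filters, a replicate block and leaving out each library. The fit was tested on simulated data. Coordinates and spans are RefSeq's for GRCh38.p14, matched by symbol for 35 of 35 genes. Named genes were all tested receptors, untested ones with at least 10 counts, and from other lists the called genes, or else the 3 tested ones with most input counts. ANXA1, SPARC, EPCAM, CDH1 and further untested receptors (CDH3, ITGA1, ITGAM, ITGAX, CDH6, CDH15, CDH18), ITGB2-AS1, DOCK1 and LAMA5 were singled out after their values were seen. The members and lists were chosen with earlier results of these data known. No sequence is shown, since protein and transcript sequences were not used here. The called gene of the adaptor list is not reported here by name.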

Additional observations from a re-analysis of the deposited data

How the results depend on the processing

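Receptors called lower, 3 with TMM, numbered 5 with upper quartile scaling, 7 with library totals, 18 with the FPKM totals, 17 with limma on log2(FPKM + 1), 8 of 35 without a filter and 0 with DESeq2. They were 4 with RLE scaling, 2 with at least 50 counts in 2 libraries, and 0 to 5 when 1 library was left out (0 without SF3B6 IP 1, 5 without SF3B6 IP 2, 0 without input 1 or input 2). Higher receptors were 0 in every setting. Among all genes, 50 lower and 99 higher became 90 and 56 with library totals, 2098 and 17 with FPKM totals, 2 and 37 with DESeq2, 2548 and 25 with limma, and 163 and 50 without a filter. With at least 50 counts 25 were lower; leaving out 1 library gave 5 to 70 lower and 26 to 94 higher. The FPKM totals and limma moved the median of all genes to -1.65 and -1.05; leaving out an input reduced the genes tested. The causes of the other changes were not tested. Deviations of same-numbered libraries had a correlation of 0.000443 over 3668 genes. With a median of 8 IP counts in these genes, counting noise could hide a pairing, so the value cannot show whether the numbers mark pairs. With a replicate block 22 genes were lower in all and 2 receptors, PTPRU being outside (-2.26, adjusted p = 0.0568); further receptors were 2 (NRP1 at 0.0692), ligands 2 and adaptors 0. DESeq2 gave adjusted p = 0.214 for CDH11, 0.226 for KIRREL1 and 0.434 for PTPRU. The summed share in protein-coding counts was 0.792% and 1.11% in SF3B6 IP 1 and 2 and 1.21% and 1.25% in input 1 and 2. In all gene counts, the share without ITGA3 was 0.274% and 0.329% in IP against 0.526% and 0.555% in input. Signs turned in genes near 0: CD44 (-0.011 with upper quartile scaling, -0.12 with library totals, -1.44 with FPKM totals, -0.91 with limma, -0.35 without a filter, and -0.38 to 0.48 when 1 library was left out), MSN (-0.0014, -1.35, -1.08 and -0.23 with library totals, FPKM totals, limma and no filter), and AFDN (-1.06 and -0.64) and COL1A1 (-0.88 and -0.43) with FPKM totals and limma. With at least 50 counts ALCAM stood at 0.12, CDH4 at 0.16, ITGB1 at 0.090 and KRT18 at 0.035. Leaving out 1 library gave -0.81 to 0.031 for ALCAM, -0.91 to 0.099 for CDH4 and, where it was tested, -1.19 to 0.40 for ITGAV. Fewer than 10 IP counts were found in 8 of 18 tested receptors and in 2220 of all 3668 tested genes. Other lists moved with the FPKM totals and limma too: further receptors, 5 lower with TMM, had 28 and 29, adaptors (1) 18 and 20, ligands (3) 21 and 21, catenins (0) 3 and 3, basal markers (0) 7 and 6 and luminal markers (0) 4 and 4.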
